A study of Bos taurus with 13 samples.

Results

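miR-423 was followed through the extracellular vesicles (EVs) of bovine follicular fluid by both strands of its hairpin, bta-miR-423-5p and bta-miR-423-3p, which were picked out by name. They are 2 of the 311 miRNAs listed in any of 13 libraries, and both were listed in every library and passed the filter on low reads in every comparison. The 5p strand was singled out for its level in cows against heifers, so its values against heifers are given as a description with no test. Its tests between cow groups use the same cow pools and are not independent of that choice. The 3p strand was added by name alone.

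The libraries hold small RNA of EVs that were isolated by ultracentrifugation from pooled fluid of large follicles of Holstein Friesian females, collected by ovum pick-up. Transient cows (TCs) were in negative energy balance at weeks 5 and 6 after calving (3 pools from 11 cows) and in positive energy balance at weeks 9 and 10 (3 pools from 7 cows). Always negative cows (ANCs, 2 pools from 2 cows) and always positive cows (APCs, 2 pools from 2 cows) were sampled at weeks 5 and 6. The heifers (3 pools from 8 animals), which had not calved, were in positive energy balance. How animals were divided among pools, and whether the same TCs served at both times, is not given in the sources used here. The p-values therefore measure the spread between pools, which may be partly technical, and ANCs and APCs each stand for 2 cows.

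MicroRNAs are cut from a hairpin as a duplex of a 5p and a 3p strand, of which either can be loaded into an Argonaute protein and then silences messenger RNAs that match its seed. The hairpin of miR-423 lies within NSRP1, a gene of a splicing regulator of nuclear speckles, between the protein-coding genes EFCAB5 and SLC6A4 in RefSeq's ARS-UCD2.0 annotation. miR-423-5p is abundant in plasma and in EVs and is often used as an internal reference for circulating small RNA. EVs of follicular fluid come from granulosa and theca cells and from the blood that feeds the follicle, so that fewer EVs of a source and less miRNA in each of them cannot be told apart here.

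Levels are given in CPM (the usual scale of reads per library) from the reads recovered from the deposited values, scaled over all 13 libraries by TMM, a method that assumes that most miRNAs keep their level. The reads recovered for the listed miRNAs numbered 145030 to 421435 a library (median 327359), which is not the full depth of sequencing. With these reads a 95% exact binomial interval for the share of miR-423-5p among them reached at most 0.122 percentage points to either side. It covers counting error only. Of the markers of other sources, the summed level of 6 leukocyte miRNAs ran from 745 to 1580 CPM in ANCs and from 2144 to 3971 CPM in APCs. It ran from 2762 to 3063 CPM in TCs at weeks 5 and 6 and from 1573 to 4820 CPM at weeks 9 and 10. In heifers it ran from 4868 to 6077 CPM. Of 3 erythroid miRNAs, miR-144 was not listed in every library and miR-451 was at 0 in 1 library of ANCs, and the sum of the other two was highest in TCs at weeks 9 and 10 (2425 to 10962 CPM). Of 8 miRNAs of ovarian follicle cells 6 were listed throughout, and their sum lay between 4893 and 14967 CPM. The sum of 6 epithelial miRNAs lay between 5138 and 31169 CPM, and the hepatic miR-122 was highest in heifers (5369 to 17623 CPM) and as low as 329 CPM in ANCs.

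miR-423-5p was among the most abundant miRNAs of follicular fluid EVs in every group. Its share of a library's recovered miRNA reads ran from 2.29% to 7.63%. It ranked between the second and the tenth most abundant miRNA, with a median rank of 5. In that ranking it stood next to bta-let-7b and bta-miR-16b (medians of 51133 and 43763 CPM) on one side and bta-miR-92a and bta-let-7a-5p (39575 and 35496 CPM) on the other, against its own median of 43279 CPM. The levels of different miRNAs within a library also carry the ligation and amplification preferences of the kit, so this order is one of reads and not of molecules.

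The level of miR-423-5p spanned 3.95-fold over the 13 libraries. In APCs it stood at 85653 and 76298 CPM. In ANCs it stood at 54232 and 57886 CPM. The pools of TCs at weeks 5 and 6 held 57478, 26597 and 75645 CPM, the widest spread of any group, and replicate 2 was the low one. At weeks 9 and 10 the pools of TCs held 35054, 43279 and 29807 CPM. The heifer pools held 28915, 21693 and 35606 CPM. Both pools of APCs were therefore above every other library, although with total reads alone replicate 2 (54219 CPM) fell below 4 others. On the TMM scale 7 of the 10 cow pools were above the highest heifer pool.

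**Figure D1:**
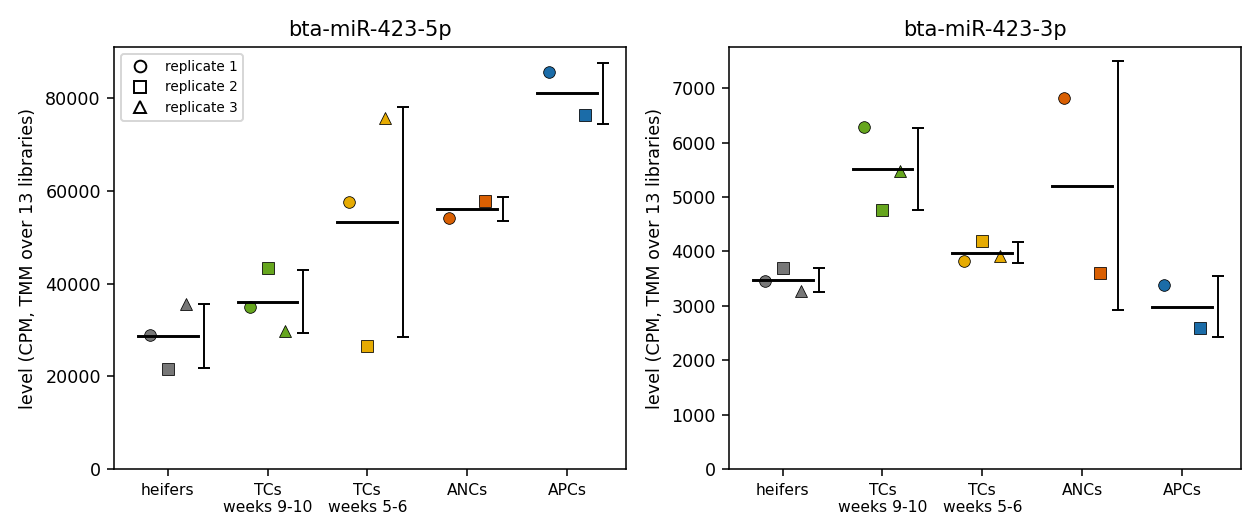
Level of each arm of miR-423 in CPM (linear axes from 0, TMM over 13 libraries) in the 5 groups, with a point for each pool, a horizontal line for the group mean and a bar for the SD. On this scale miR-423-5p is highest in both pools of APCs, whereas miR-423-3p is lowest on average in APCs (2987 CPM).

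By group mean, miR-423-5p was ordered from APCs (80976 ± 6615 CPM, SD, n = 2) through ANCs (56059 ± 2584, n = 2), TCs at weeks 5 and 6 (53240 ± 24797, n = 3) and TCs at weeks 9 and 10 (36047 ± 6791, n = 3) to heifers (28738 ± 6958, n = 3). Among the cow groups, no group in this order was shown to differ from the next, and the last step, to heifers, was not tested. ANCs were 0.53 lower than APCs on the log2(CPM + 5) scale (SE 0.35, limma adjusted p = 0.627, 95% interval of the difference -1.42 to 0.36). The pools of ANCs and APCs did not overlap, as for 44.1% of all miRNAs. ANCs and TCs at weeks 5 and 6 differed by 0.20 (SE 0.53, limma adjusted p = 0.966, interval -1.05 to 1.45) and overlapped, whereas 25.4% of all miRNAs did not. Within the TCs, the level at weeks 9 and 10 was 0.45 lower than at weeks 5 and 6 (SE 0.44, limma adjusted p = 0.723, interval -1.46 to 0.55), and the pools of both times overlapped. The difference was -0.13 without replicate 3 of weeks 5 and 6 and -0.89 without replicate 2. Scaling by total reads alone kept this order of the means (65248, 60630, 48281, 39552 and 30957 CPM).

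miR-423-5p was higher in APCs than in TCs at weeks 9 and 10, groups that were both in positive energy balance. The same pools of APCs stand in the contrast with heifers for which this strand was chosen. The test below is therefore not independent of that choice, which may favour a call. The difference was 1.18 on the log2(CPM + 5) scale, a 2.27-fold higher level (SE 0.29, 95% interval 0.45 to 1.91, limma adjusted p = 0.134). It met the thresholds of the study for a DE miRNA (a log2 fold change of 1 or more in either direction, p under 0.05 and adjusted p up to 0.25), and the pools did not overlap. In this comparison 22 of 227 miRNAs tested were DE (9.69%), of which 18 were higher (7.93%) and 4 lower (1.76%) in APCs, and the groups did not overlap for 30.4% of all miRNAs. With 2 pools against 3, an exact two-sided permutation test cannot go below p = 0.1, the value it gave. The call depended on the scaling: with total reads alone the difference was 0.70 (adjusted p = 0.286) and with the values as deposited 0.90 (adjusted p = 0.216), under the fold threshold in both. The call was also lost without replicate 3 of the TCs (1.05, adjusted p = 0.536), without replicate 1 of the APCs (1.10, adjusted p = 0.304) and without replicate 2 of the APCs (1.27, adjusted p = 0.383).

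In the other comparisons between groups of cows no miRNA was DE by limma (0% of 211 to 225 tested), and miR-423-5p was not either. At an unadjusted p under 0.05 ANCs against APCs had 18 miRNAs, ANCs had 19 against TCs at weeks 5 and 6 and 12 against those at weeks 9 and 10, APCs had 5 against TCs at weeks 5 and 6, and the TC times had 15 between them. edgeR's quasi-likelihood test called 0 in each of these, and DESeq2 called 4, 0, 4, 1 and 1 in the same order. Compared with TCs at weeks 9 and 10, ANCs were 0.65 higher in miR-423-5p (SE 0.31, limma adjusted p = 0.647, interval -0.08 to 1.38), without overlap of the pools, as for 28.1% of all miRNAs. Compared with TCs at weeks 5 and 6, APCs were 0.73 higher (SE 0.59, limma adjusted p = 0.998, interval -0.67 to 2.13), again without overlap, as for 15.6% of all miRNAs. Without replicate 2 of these TCs this was 0.29.

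Against heifers, for which miR-423-5p had been chosen, APCs stood 1.52 higher (SE 0.33), a fold of 2.87. With total reads alone this was 1.09, where the median of all miRNAs moved from -0.12 to -0.55. ANCs stood 0.99 higher (SE 0.34), a fold of 1.99. In neither comparison did the pools overlap, as for 38.9% of all miRNAs with APCs and 48.2% with ANCs. TCs at weeks 5 and 6 stood 0.79 higher (SE 0.44) and TCs at weeks 9 and 10 0.34 higher (SE 0.28), and in both the pools overlapped with those of heifers. All 4 differences share the same heifer pools. The difference of TCs at weeks 5 and 6 was 1.23 without their replicate 2 and 0.47 without their replicate 3. That of TCs at weeks 9 and 10 was 0.15 without replicate 2 of the heifers, 0.20 without replicate 2 of the TCs and 0.51 without replicate 3 of the heifers. Of all miRNAs tested, 15% were DE in APCs, 18.8% in ANCs, 7.05% in TCs at weeks 5 and 6 and 0% in TCs at weeks 9 and 10 against heifers, where 22 of 229 had an unadjusted p under 0.05, edgeR called 0 and DESeq2 called 13. By size of the difference miR-423-5p was number 17 from the top of 226 in APCs and number 16 of 218 in ANCs. Of 5 leukocyte miRNAs tested, 5 were downregulated in ANCs (15.1% of all miRNAs were), 2 in APCs (5.75%) and 3 in TCs at weeks 5 and 6 (5.29%). In TCs at weeks 9 and 10 limma and edgeR called 0 of them, 3 had an unadjusted p under 0.05 and DESeq2 called 3. In ANCs 2 of 2 erythroid miRNAs, 5 of 6 epithelial miRNAs and miR-122 were also downregulated against heifers. Of 6 miRNAs of ovarian follicle cells 2 were upregulated there (3.67% of all miRNAs were) and 2 downregulated (15.1%). miR-122 was also lower in APCs (-2.43) and in TCs at weeks 5 and 6 (-1.13) and weeks 9 and 10 (-1.70). Each of these had an unadjusted p under 0.05 but no call by limma. DESeq2 called each, and edgeR only that at weeks 5 and 6. Of the 6 epithelial miRNAs 1 was downregulated in APCs and 1 in TCs at weeks 5 and 6. The part of these sources in the differences of miR-423-5p was not tested.

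miR-423-3p, the strand with far fewer reads, did not share this pattern. It took between 0.184% and 0.776% of the recovered miRNA reads, and its median rank was 48. The pools of TCs at weeks 9 and 10 held 6282, 4769 and 5479 CPM. The pools of ANCs held 6826 and 3595 CPM. TCs at weeks 5 and 6 stood at 3818, 4193 and 3925 CPM. Heifers were close together at 3464, 3700 and 3272 CPM. APCs stood at 3383 and 2592 CPM, and their replicate 2 was the lowest of all 13 libraries. ANCs were divided, with replicate 1 the highest library of all and replicate 2 within the range of TCs at weeks 5 and 6 and heifers.

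The order of the group means of miR-423-3p thus ran from TCs at weeks 9 and 10 (5510 ± 757 CPM, SD, n = 3) through ANCs (5211 ± 2284, n = 2), TCs at weeks 5 and 6 (3978 ± 193, n = 3) and heifers (3479 ± 214, n = 3) to APCs (2987 ± 559, n = 2). Each group again differed from the next by less than the test could separate, with limma adjusted p-values of 0.875, 0.810, 0.609 and 0.717 down the order. The largest difference was between APCs and TCs at weeks 9 and 10, the same pair as for miR-423-5p but in the other direction. APCs were 0.89 lower on the log2(CPM + 5) scale (SE 0.31, 95% interval -1.64 to -0.13, adjusted p = 0.282 from limma), which missed the fold and the adjusted threshold. With total reads alone this difference was -1.36 (adjusted p = 0.163) and with the values as deposited -1.17 (adjusted p = 0.180), both DE. In this comparison the median of all miRNAs itself moved from -0.08 with TMM to -0.55 with total reads and -0.36 with the deposited values, and the DE miRNAs changed from 18 higher and 4 lower to 14 higher and 29 lower and to 15 higher and 21 lower.

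Against heifers miR-423-3p was 0.66 higher in TCs at weeks 9 and 10 (SE 0.24, limma adjusted p = 0.376), 0.51 higher in ANCs (SE 0.39, adjusted p = 0.410), 0.19 higher in TCs at weeks 5 and 6 (SE 0.20, adjusted p = 0.609) and 0.23 lower in APCs (SE 0.32, adjusted p = 0.717). The pools of TCs did not overlap with those of heifers at either time, as for 22% of all miRNAs at weeks 5 and 6 and 14.4% at weeks 9 and 10. The difference of ANCs was 0.049 without their replicate 1 and 0.97 without their replicate 2, and that of APCs ran from -0.42 without their replicate 1 to -0.038 without their replicate 2. With total reads alone the difference of TCs at weeks 5 and 6 was -0.02. Over all 10 cow pools against 3 heifer pools the mean difference was 0.31 (exact two-sided permutation p = 0.241), with 7 of the 10 above the highest heifer pool.

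**Figure D2:**
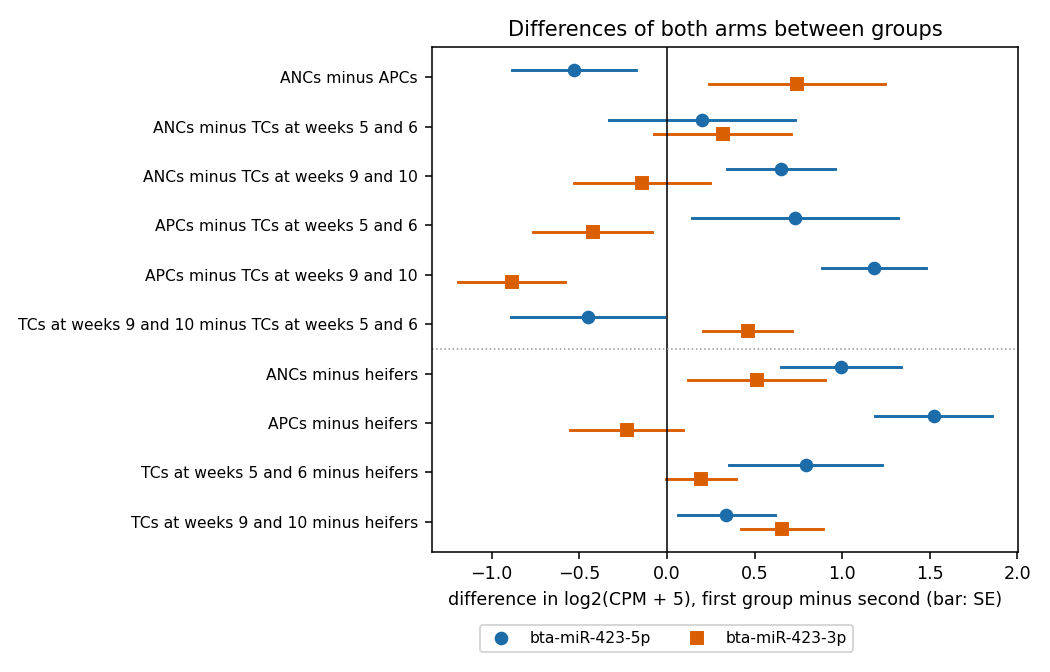
Difference of each arm of miR-423 between pairs of groups in log2(CPM + 5), first group minus second, with a bar of 1 standard error to either side and a dotted line between the pairs of cow groups and the pairs with heifers. The arms lie furthest apart for APCs minus TCs at weeks 9 and 10, at 1.18 for miR-423-5p and -0.89 for miR-423-3p.

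The reads of one arm per read of the other depend on no scaling between libraries, since both are counted in the same library. miR-423-5p outnumbered miR-423-3p everywhere, and its share of the reads of both arms ran from 84.5% to 96.7%. APCs had 25.3 and 29.4 reads of miR-423-5p for each read of miR-423-3p. TCs at weeks 5 and 6 had ratios of 15.1, 6.34 and 19.3, and ANCs of 7.94 and 16.1. The ratios were 8.35, 5.86 and 10.9 in heifers and 5.58, 9.07 and 5.44 in TCs at weeks 9 and 10. Both pools of APCs lay above the other 11 libraries, and the other 4 groups overlapped with each other.

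**Figure D3:**
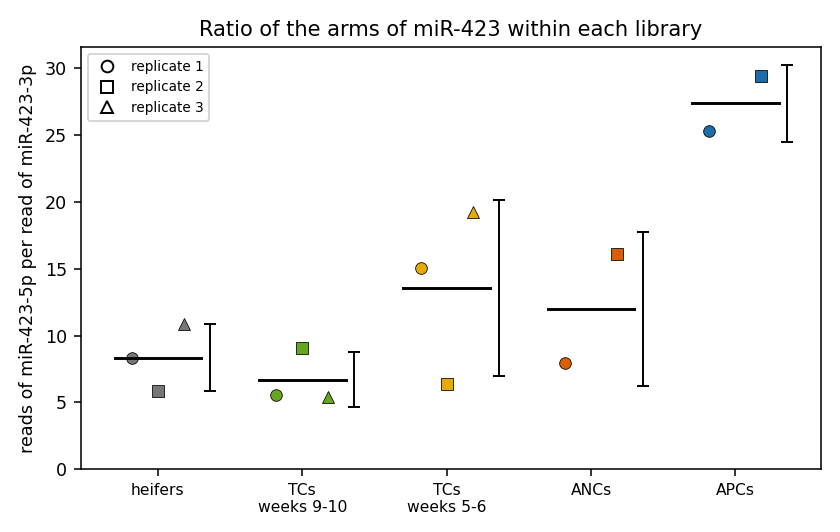
Reads of miR-423-5p per read of miR-423-3p in each library (linear axis from 0), with a point for each pool, a horizontal line for the group mean and a bar for the SD. The pools of APCs sit at 25.3 and 29.4, above all other libraries.

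The mean ratio was 27.4 ± 2.91 (SD, n = 2) in APCs, 13.6 ± 6.59 (n = 3) in TCs at weeks 5 and 6, 12.02 ± 5.77 (n = 2) in ANCs, 8.36 ± 2.51 (n = 3) in heifers and 6.70 ± 2.06 (n = 3) in TCs at weeks 9 and 10. Between APCs and TCs at weeks 9 and 10 the log2 ratio differed by 2.07 (SE 0.32), a 4.20-fold higher ratio in APCs. The exact two-sided permutation p was 0.1, the smallest that 2 pools against 3 allow, and 0.4 after adjustment over the 6 pairs of cow groups. APCs also exceeded TCs at weeks 5 and 6 by 1.16 (exact permutation p = 0.2) and ANCs by 1.27 (exact permutation p = 0.333, the smallest possible with 2 against 2). The first of these was 0.68 without replicate 2 of the TCs, and the second, as ANCs minus APCs, was -0.76 without replicate 1 of the ANCs and -1.78 without their replicate 2. Leaving out any of the 5 pools kept the difference between APCs and TCs at weeks 9 and 10 between 1.94 and 2.31. The ratio contains miR-423-5p, so its tests between cow groups are not independent of the choice of that strand. Compared with heifers, the log2 ratio of APCs was 1.75 higher (SE 0.34), given as a description. The TMM factors moved with these values, at 0.891 and 0.711 in APCs against 0.803 to 1.20 in the other libraries, and Pearson's r of the log2 factor with the log2 ratio was -0.82 over 13 libraries. The recovered reads did not follow it (r = 0.03).

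The ratio of arms could be followed in 7 hairpins, those with at least 10 reads of each arm in every library, out of 19 with both arms listed throughout. The log2 ratio of miR-423 ranged over 2.44, from 2.44 to 4.88, which was exceeded by miR-503 (3.41), a hairpin of the follicular miR-424 cluster, and miR-151 (2.48). miR-425, which like miR-423 favours its 5p strand, ranged over only 0.98. Of the 7, miR-423 had the highest difference for APCs against TCs at weeks 9 and 10, where the median over the hairpins was 0.21 and the groups did not overlap for 42.9% of them. Its 5p strand was chosen for its level in cows against heifers, a contrast that holds the same pools of APCs. That choice may favour a high place of miR-423 among the hairpins, so its place is a description. miR-151 moved the same way by nearly as much, by 1.82 against 2.07 for miR-423, and miR-22 moved furthest the other way, by -1.33. For APCs against heifers miR-423 stood at 1.75, miR-151 at 1.61 and miR-22 at -1.10, beside a median of -0.06 and 57.1% without overlap. For APCs against TCs at weeks 5 and 6 miR-423 stood at 1.16, miR-151 at 0.50 and miR-22 at -1.07. The median there was 0.50, with 71.4% without overlap.

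**Figure D4:**
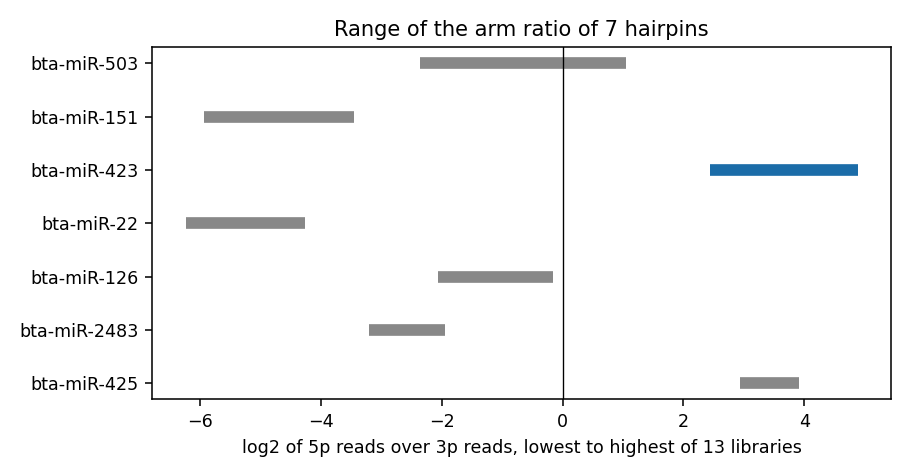
Lowest to highest log2 ratio of 5p to 3p reads over 13 libraries for 7 hairpins with at least 10 reads of each arm (values above 0 mean more 5p reads). miR-423 in blue runs from 2.44 to 4.88, and the ranges of miR-503 and miR-151 are wider.

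No difference in miR-423 by energy status of lactating cows was shown. Each side joins separate groups, and on the positive side APCs and TCs at weeks 9 and 10 lie far apart in miR-423-5p. TCs stand on both sides, and any pairing of the same cows was not used. The 5 pools in negative energy balance (TCs at weeks 5 and 6 with ANCs) and the 5 in positive energy balance (TCs at weeks 9 and 10 with APCs) differed by 0.06 in log2(CPM + 5) of miR-423-5p (exact two-sided permutation p = 0.881), by 0.02 in miR-423-3p (exact permutation p = 0.952) and by 0.04 in the log2 ratio of the arms (exact permutation p = 0.952, smallest possible 0.00794). The positive pools held both the highest and the lowest values of the ratio among cows, in APCs and in TCs at weeks 9 and 10.

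The study's record of RNA measurement gives 2 days, with replicate 1 of every group on the first. Among these 5 pools miR-423-5p stood at 85653 CPM in APCs, 57478 in TCs at weeks 5 and 6 and 54232 in ANCs. It stood at 35054 in TCs at weeks 9 and 10 and 28915 in heifers. Since both pools of APCs were above every other library on this scale, the first place of APCs here was fixed in advance. With 1 pool of each group on that day there is no spread to test, and the day of the other pool of APCs was not given.

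Across all 13 libraries the miRNAs most like miR-423-5p in log2(CPM + 5), out of 197 with a mean of at least 50 CPM, were bta-miR-1839 (Pearson's r = 0.924), bta-miR-320a (0.916), bta-miR-2284x (0.913), bta-miR-873 (0.895) and bta-miR-296-3p (0.885). miR-320a is made without the usual first cut of the hairpin, miR-2284x belongs to a large ruminant family of near-identical members whose reads may be split among copies, and miR-296 lies in the imprinted GNAS locus. Their group means were all highest in APCs, and 4 of the 5 were lowest in heifers, whereas miR-873 was lowest in TCs at weeks 9 and 10. Examples are 147189 ± 16471 CPM (SD, n = 2) of miR-320a in APCs against 34335 ± 17876 (n = 3) in heifers, and 13142 ± 293 (n = 2) of miR-1839 against 3746 ± 2130 (n = 3). In TCs at weeks 5 and 6, replicate 2 was the lowest of its group for miR-423-5p and for all 5 of them. These are descriptions over libraries that share a scaling and differ in composition. Of the 5, 3 remained among the nearest 5 without the heifer libraries and 1 after the group means were taken out, namely miR-320a.

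**Figure D5:**
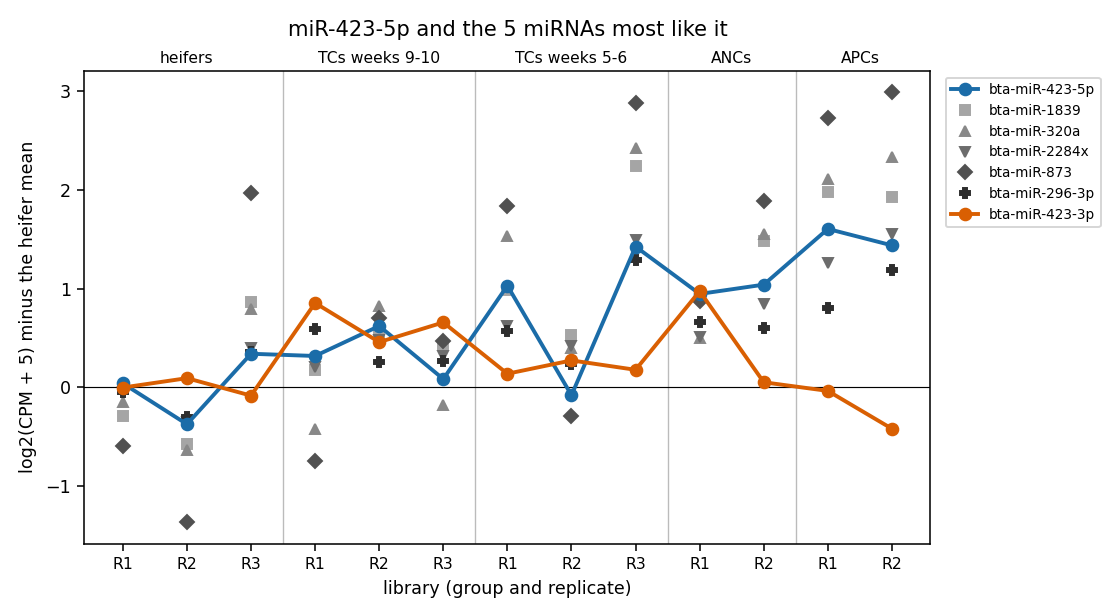
Level of miR-423-5p (blue), of its 5 nearest miRNAs (grey) and of miR-423-3p (orange) in each of 13 libraries, as log2(CPM + 5) minus the mean of the heifers. Lines only join the points of a strand, and the low replicate 2 of TCs at weeks 5 and 6 (-0.08 for miR-423-5p) is visible in all of the blue and grey points of that group.

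The other arm was not among these: r between miR-423-5p and miR-423-3p was -0.26 over 13 libraries, number 119 of 197 in likeness, and -0.59 over the 10 cow libraries. miR-423-3p was most like bta-miR-25 (r = 0.889), a member of the miR-106b cluster in MCM7. It was followed by bta-miR-2284z (0.847) and bta-miR-452 (0.845). The miRNAs least like miR-423-5p were bta-miR-342 (r = -0.905), which lies in the gene EVL, bta-miR-425-5p (-0.873) and bta-miR-151-3p (-0.843), which lies in the gene PTK2. miR-342 was highest in heifers (7004 ± 811 CPM, SD, n = 3) and lowest in APCs (3294 ± 873, n = 2). miR-425-5p likewise ranged from 2411 ± 165 CPM (n = 3) in heifers to 1372 ± 9.78 (n = 2) in APCs.

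Since miR-423-5p is used as a reference for circulating small RNA, its spread was set beside that of 20 other miRNAs used in this way, all of them listed in every library. The SD of log2(CPM + 5) over 13 libraries was 0.65 for miR-423-5p, number 118 of 198 counted from the least variable, and 0.40 for miR-423-3p, number 37, against a median of 0.59 over the 198. Of the 20, 16 varied less than miR-423-5p and 4 varied more (miR-103, miR-320a, miR-191 and miR-222). The SD includes the heifer pools, and miR-423-5p was chosen for its level in cows against heifers, which raises its SD. Its place in this order is therefore a description, and its worth as a reference was not tested. let-7a-5p (0.31, number 10), miR-425-5p (0.32, number 13) and miR-25 (0.33, number 17) were among the former, and miR-320a (1.06, number 177) and miR-103 (1.15, number 180), a regulator of insulin sensitivity, among the latter.

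Of the 20 reference miRNAs, 3 were upregulated in APCs against heifers (9.29% of all miRNAs were) and 0 downregulated, and the median difference was -0.24 against -0.12 over all miRNAs tested. These were miR-320a (2.22, SE 0.46, limma adjusted p = 0.0686), miR-103 (2.01, SE 0.48, adjusted p = 0.0740) and miR-26a (1.35, SE 0.32, adjusted p = 0.0740). The same 3 were upregulated in APCs against TCs at weeks 9 and 10, by 2.15, 2.31 and 1.12 (limma adjusted p = 0.105, 0.106 and 0.138), where 7.93% of all miRNAs were. In ANCs against heifers, miR-92a was upregulated, as were 3.67% of all miRNAs (1.11, SE 0.37, limma adjusted p = 0.128). miR-191, miR-221 and miR-222 were downregulated in ANCs, by -1.21, -1.14 and -1.22 (limma adjusted p = 0.103, 0.164 and 0.164), as were 15.1% of all miRNAs. The median of the list there was 0.11 against -0.06 over all miRNAs. The calls of miR-26a were lost with total reads alone (0.91 against heifers and 0.65 against TCs at weeks 9 and 10), and with the deposited values those of miR-26a against TCs (0.84) and of miR-92a (0.94) were lost. In TCs at either time 0 of the 20 were DE against heifers by limma or by edgeR. By limma 7.05% of all miRNAs were DE at weeks 5 and 6 and 0% at weeks 9 and 10. At weeks 5 and 6, 7 of the 20 had an unadjusted p under 0.05, beside 40 of all 227 tested. At weeks 9 and 10 this was 1 of the 20, beside 22 of 229. DESeq2 called 2 of the 20 at weeks 5 and 6 (29 of all miRNAs) and 0 at weeks 9 and 10 (13 of all miRNAs).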

How the data were processed

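Small RNA of 13 EV pools was prepared by the authors with the QIAseq kit. Per the labels and the study, reads were trimmed with cutadapt 1.11, mapped with Bowtie2 2.2.2 (build UMD3.1), annotated against miRBase and TMM-normalized with edgeR. The deposited values are CPM, and in libraries whose totals exceed what CPM sums to they were recorded as a signal that the authors made in the same way. The spacing of low values gave back whole reads (3681 of 3681 within 0.1 read, 1 read being worth 2.64 to 6.32 CPM). They were scaled with TMM over the 262 miRNAs listed in every library. limma-trend (limma 3.58.1) was applied to log2(CPM + 5) of the 2 groups compared, after edgeR's filterByExpr (minimum count 10, total 15), with Benjamini-Hochberg adjustment. Fold changes are on that scale and understate low miRNAs. edgeR 4.0.16 and DESeq2 1.42.0 on the recovered reads were alternatives. Arm ratios and energy status were compared by exact permutation tests (scipy 1.17.1). Each step was tested on simulated reads. The members, marker lists and reference list were chosen with earlier results of these data known. Named miRNAs are both arms, their neighbours in abundance, the 5 most and 3 least alike, the 3 most like the other arm, hairpins with both arms, and the reference list. miR-503 and the neighbours of the 3p arm in likeness were named after their values were seen.

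TCs at weeks 5 and 6 and heifers share replicate numbers. Once group means were removed, pools with one number correlated across 244 miRNAs by 0.191, 0.377 and 0.376. For APCs with TCs at weeks 9 and 10 the values were 0.506 and 0.494, and for ANCs with the same TCs 0.406 and 0.506. The deviations of 2 pools from their own mean mirror each other, so the 2 values of APCs or ANCs are not separate evidence. No label pairs these cows and heifers, so the fit without a block is the main one and the replicate block an alternative. With the replicate block 29 in place of 16 miRNAs were DE there. Replicate 1 of both groups shares the first day of RNA measurement, and replicates 2 and 3 share the other day. The part of the day in these correlations was not tested.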

Additional observations from a re-analysis of the deposited data

Results flagged for a closer look

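Among the 5 pools of cows in negative energy balance, miR-423-3p in replicate 1 of the ANCs stood apart at 6826 CPM, against 3595 to 4193 CPM in the other 4. On the log2(CPM + 5) scale its gap to the nearest pool was 0.760 of the whole range, above the critical value of Dixon's test for 5 samples. Chance alone flags about 1 in 20 groups, and 9 groups were examined. The 5p arm of the same pool (54232 CPM) lay within the range of its group, and its ratio of the arms was 7.94. The cause was not tested.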

How the results depend on the processing

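For APCs against TCs at weeks 9 and 10, miR-423-5p was 0.70 with total reads and 0.90 with the deposited values and no longer DE, and miR-423-3p was -1.36 and -1.17 and became DE. miR-423-5p in APCs against heifers was 1.09 with total reads, and miR-423-3p in TCs at weeks 5 and 6 against heifers turned to -0.019. Between energy states, miR-423-5p turned to -0.025 with the deposited values, and miR-423-3p to -0.065 with them and to -0.0026 with DESeq2's size factors. Under the replicate block the arm ratio of ANCs against TCs at weeks 5 and 6 turned to 0.21. Of the 5 miRNAs most like miR-423-5p, 3 remained without heifers and 1 with deviations from the group means. Of all results under alternatives or with 1 pool left out, 555 were taken as kept, 24 reversed, 5 lost and 2 gained a call and 49 moved. Kept means the same direction and call, but it allows some change in a number of DE miRNAs. For APCs against heifers, for example, 34 became 49 with the deposited values and was taken as kept. The cause was not tested.

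The number of DE miRNAs moved as follows. With the replicate block it was 36 for ANCs against APCs (0 without), 17 for ANCs and 18 for APCs against TCs at weeks 5 and 6 (0), 5 for ANCs against TCs at weeks 9 and 10 (0), and against heifers 70 in ANCs (41), 29 in TCs at weeks 5 and 6 (16) and 2 in TCs at weeks 9 and 10 (0). It changed no call of either arm of miR-423. The numbers are not known to pair pools in any comparison. Apart from the TCs at weeks 5 and 6 with heifers, fewer than 3 pairs were shared or the correlation was 0.1 or less for a pair. With total reads it was 43 for APCs and 2 for ANCs against TCs at weeks 9 and 10 (22 and 0), and against heifers 63 in APCs (34), 26 in TCs at weeks 5 and 6 (16) and 6 in TCs at weeks 9 and 10 (0). The DE miRNAs of APCs against heifers then changed from 21 higher and 13 lower to 14 higher and 49 lower, and those of ANCs against heifers from 8 higher and 33 lower to 4 higher and 41 lower with the deposited values. The deposited values gave 36 for APCs against TCs at weeks 9 and 10. DESeq2 gave 4 for ANCs against APCs and 4 against TCs at weeks 9 and 10, 1 for APCs against TCs at weeks 5 and 6, 1 between the TC times, and, against heifers, 29 in TCs at weeks 5 and 6 and 13 in TCs at weeks 9 and 10. Adding the measurement day of the RNA to the fit gave 0 for TCs at weeks 5 and 6 against heifers and 4 for ANCs against TCs at weeks 9 and 10. One fit over all 13 libraries gave 1 for the latter and, against heifers, 4 in TCs at weeks 9 and 10. The day could not be used for comparisons with APCs, since it was not given for 1 of their pools.

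Leaving out 1 pool at a time, where this leaves 1 pool in a group that pool was taken to vary like the others. For ANCs against TCs at weeks 5 and 6, miR-423-5p ran from -0.23 (without replicate 2 of the TCs) to 0.52, miR-423-3p from -0.14 (without replicate 1 of the ANCs) to 0.78 and the arm ratio from -0.63 to 0.39. miR-423-3p in ANCs against TCs at weeks 9 and 10 ran from -0.61 to 0.32, and in ANCs against APCs from 0.28 to 1.20. miR-423-5p in APCs against TCs at weeks 9 and 10 ran from 1.05 to 1.32. The arm ratio of ANCs against heifers ran from -0.029 to 0.99. Between energy states the ranges were -0.12 to 0.30 for miR-423-5p, -0.16 to 0.16 for miR-423-3p and -0.23 to 0.38 for the arm ratio. The number of DE miRNAs ran from 0 to 38 for ANCs against APCs, 0 to 6 for ANCs and 0 to 4 for APCs against TCs at weeks 5 and 6, 0 to 3 for ANCs and 0 to 21 for APCs against TCs at weeks 9 and 10, and 0 to 21 between the TC times. Against heifers it ran from 8 to 68 for ANCs, 2 to 51 for APCs, 0 to 44 in TCs at weeks 5 and 6 and 0 to 23 at weeks 9 and 10. Each group had 2 or 3 pools, and the library with the fewest recovered miRNA reads had 145030. The number of pools rather than the reads of miR-423 (at least 537 of either arm) limited the precision.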
